A study of Homo sapiens with 8 samples.

Results

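The S100 proteins are small calcium-binding proteins, and 10 of their genes are described here among the 60483 genes of the deposited count table: S100A2, S100A3, S100A4, S100A6, S100A8, S100A9, S100A10, S100A14, S100A16 and S100P. They were chosen by gene symbol and not by their values, and 9 of the 10 passed the filter on low counts. S100A8 did not. In the libraries labelled PAF1 knockdown, S100A9 and S100A14 were lower than in the controls, at 0.454 and 0.576 times the control level, and both passed the test with a term for the library name prefix, as did 1.41% of all genes in that direction, while no gene passed without the term. S100P was lower and S100A2 and S100A3 were higher in both of these libraries than in both controls, but none of the 3 passed, and 22.6% of all genes lay lower and 22.1% higher in the same way. The most abundant members, S100A4, S100A6, S100A10 and S100A16, had overlapping values in both groups.

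RNA-seq libraries were made from SW1990 cells, an established line from pancreatic ductal adenocarcinoma. All titles describe the side population, cells that pump out a dye, as either control or PAF1 CRISPR knockdown; PAF1 belongs to the PAF1 complex, which travels with RNA polymerase II during elongation. Because PAF1 mRNA did not separate the groups, the knockdown samples are called knockdown-labelled. The control's CRISPR construct, the guides, and whether a line is 1 clone were not given in the sources used here. There were 2 libraries per group and 2 lanes per library, and the lanes were summed. In the column names 1 library of each group begins with SP and the other does not, so the libraries are called SP-prefixed and unprefixed. The SP-prefixed names also hold the tag P3, which the unprefixed names lack, so prefix and tag cannot be told apart. The titles abbreviate side population as SP for every library, including those whose column names lack the prefix. Whether the prefix has the same meaning, so that unprefixed libraries come from other cells, is not stated. The labels do not otherwise say what sets these libraries apart. The word CRISPR stands in 3 of the 4 names, not in that of the unprefixed control.

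Most S100 proteins form dimers, bind calcium through a pair of EF-hand loops, and then expose a surface that docks onto target proteins such as annexins, myosin and ezrin. Some are also released and bind receptors on other cells, among them AGER, the receptor for advanced glycation end products, and TLR4. In pancreatic ductal adenocarcinoma, S100P, S100A4 and S100A6 are often studied as tumour-associated proteins, and most S100 genes lie in a cluster on chromosome 1.

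Library totals ranged from 17234973 to 22348416 counts. PAF1 itself measured 55.2 and 43.9 CPM (the count scaled to a common, TMM-normalised library size) in the unprefixed and SP-prefixed controls, and 41.7 and 44.4 CPM in the corresponding knockdown-labelled libraries. The PAF1 ranges of the groups overlapped, with a log2 fold change of -0.20 ± 0.16 (SE) and an adjusted p of 0.659 by edgeR's quasi-likelihood test with Benjamini-Hochberg adjustment, so the mRNA level gave no check of the labels. All 7 ductal epithelial marker genes were above 71 CPM in every library. KRT7 was higher in both knockdown-labelled libraries than in both controls, and EPCAM, CDH1 and the membrane mucin MUC1 were lower. Over all genes tested, 22.1% lay higher and 22.6% lower in this way. Only MUC1 of these markers passed a test, the one with a prefix term, where 1.41% of all genes passed as lower. MUC1 had 229 and 143 CPM in the unprefixed and SP-prefixed control. In the corresponding knockdown-labelled libraries it had 115 and 71.6 CPM. Its log2 fold change with the prefix term was -0.997 ± 0.134 (SE, adjusted p of 0.0105), and the adjusted p without the term was 0.297. The part of MUC1 in the S100 differences was not tested. The summed level of 8 leukocyte markers was 0.316 to 2.91 CPM, that of 5 acinar markers 3.995 to 8.109 CPM, that of the fibroblast markers 36.4 to 45.6 CPM and that of the endothelial markers 23.8 to 29.8 CPM. COL1A1 (29.8 to 37.9 CPM) carried most of the fibroblast sum, with COL3A1 and DCN at 0 counts, and CDH5 (20.7 to 27.4 CPM) most of the endothelial sum. The labels name no separate cultures, so every p-value reflects only how far these libraries spread, possibly for technical reasons.

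S100A6, a partner of annexins and of the calcyclin-binding protein, was the most abundant member. Per kilobase of gene length its mean level over the 4 libraries was 1595 CPM per kb, which ranked 3rd among the 16417 genes that passed the filter. S100A4, a binder of non-muscle myosin known for its role in cell motility, followed at 928 CPM per kb in rank 8. S100A10, the light chain of the annexin A2 tetramer, had 421 CPM per kb (rank 31), and S100A16, a broadly expressed member, had 310 CPM per kb (rank 56). S100A2, S100P and S100A14 lay close together at 155, 108 and 97.0 CPM per kb. S100A9 had 53.2 and S100A3 had 15.7 CPM per kb, and S100A8 only 0.0569 CPM per kb. The S100A2, S100A14 and S100P levels exchanged places between libraries, so their order is not fixed: in the SP-prefixed control S100P was the highest of the 3 and S100A2 the lowest, while in the unprefixed control and both knockdown-labelled libraries S100A2 was the highest.

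The 10 members together took 4948 CPM in the unprefixed control, 3876 in the SP-prefixed control, 4203 in the unprefixed knockdown-labelled library and 3881 in its SP-prefixed counterpart. The groups overlapped in this sum. S100A4, S100A6, S100A10 and S100A16 made up 84.2% to 88.7% of it, so the sum says little about the less abundant members. The plot of levels by library shows each member on its own scale.

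**Figure D1:**
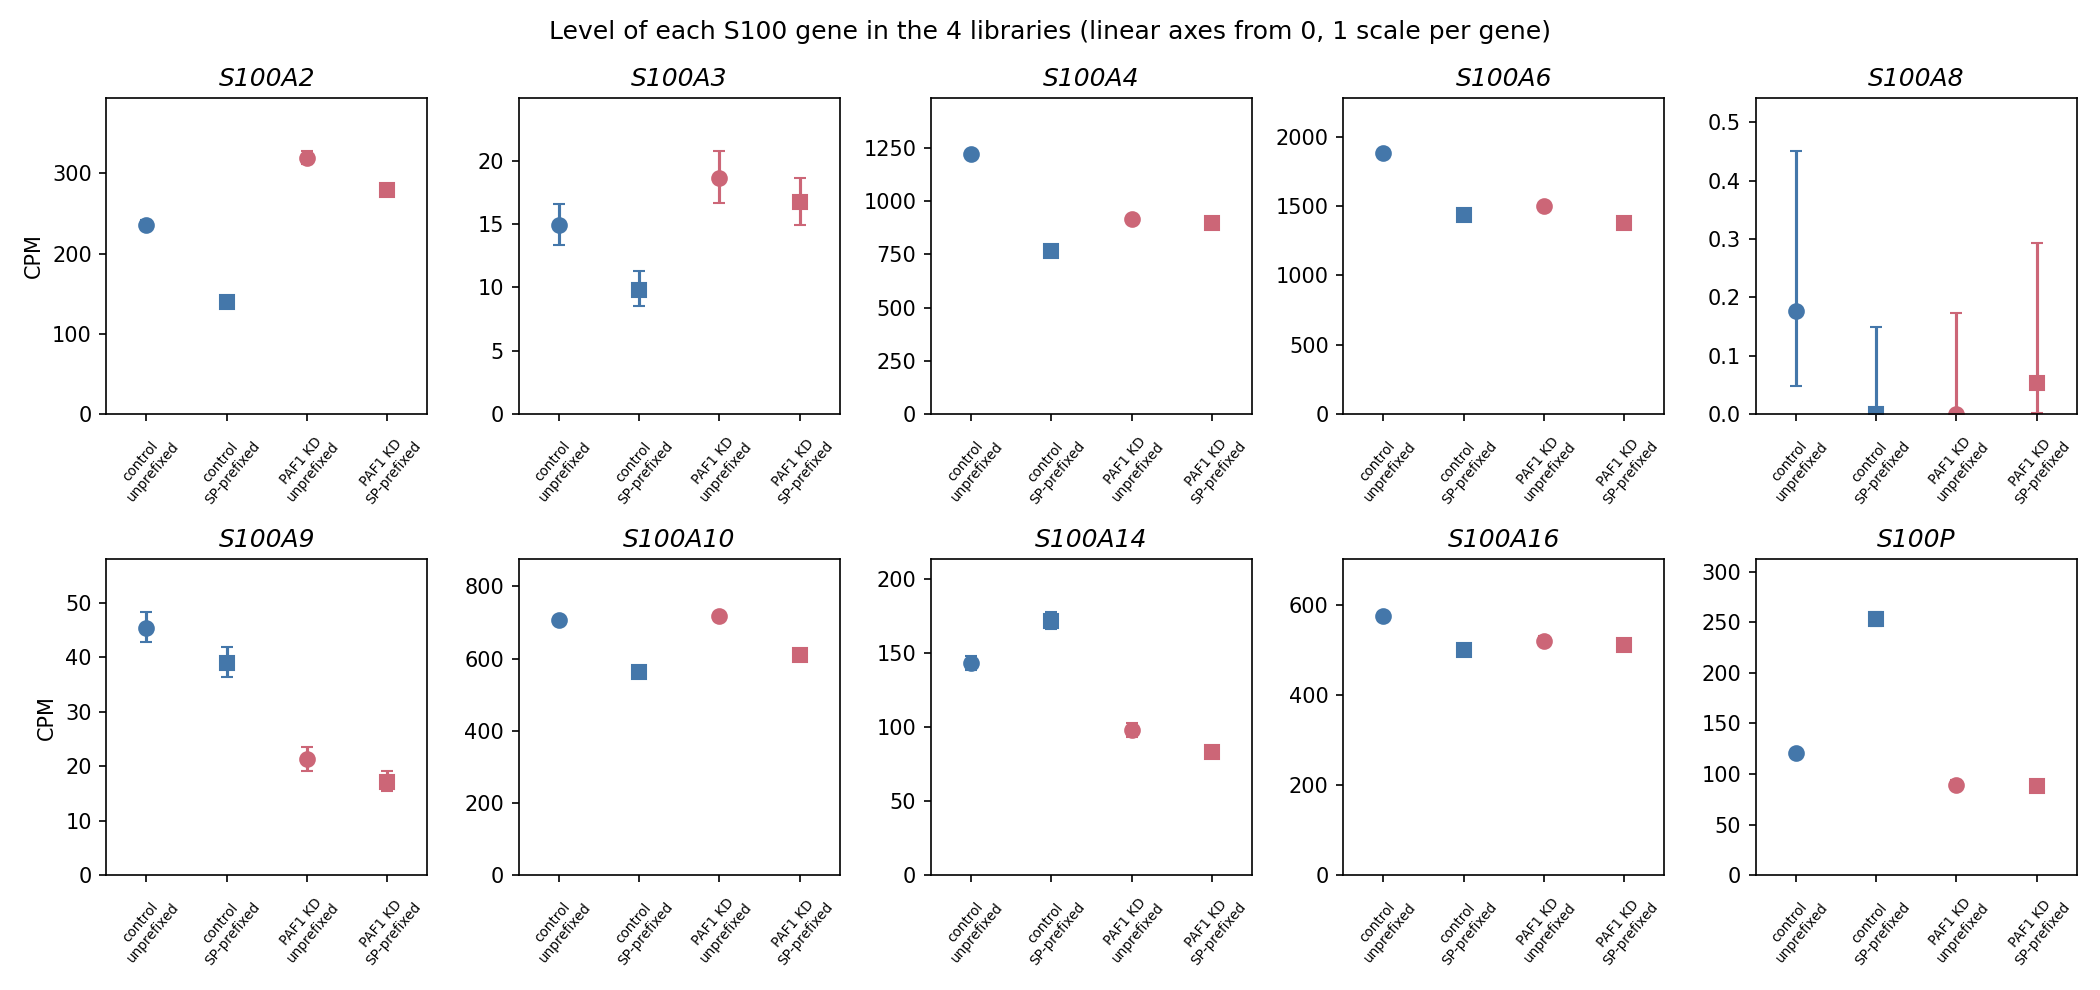
Level of each of the 10 S100 genes in CPM (linear axes from 0, one scale per gene) in the control (blue) and the knockdown-labelled libraries (red), unprefixed as circles and SP-prefixed as squares; bars are exact 95% Poisson intervals of the count, and reach 3 counts where the count is 0. S100A9, S100A14 and S100P are lower in both red libraries than in both blue ones, and S100A2 and S100A3 higher.

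S100A9, S100A14 and S100P were the 3 that lay lower in both knockdown-labelled libraries than in both controls. Over all genes tested, 22.6% lay lower in this way and 22.1% higher, which is the background for these counts. S100A9 is one subunit of calprotectin, S100A14 is an epithelial S100 protein, and S100P is a secreted ligand of AGER that also binds ezrin. The promoters of these 3 genes are shown because they are the members that were lower together. They come from RefSeq on GRCh38.p14 and run from 250 bases before to 50 bases after the RefSeq start, 5′ to 3′ on the gene's strand. Capitals mark matches on either strand. The AP-1 motif searched was spelled TGANTCA. The TATA motif was spelled TATAAA. The GC box was spelled GGGCGG, and matches may overlap. S100A9 is chr1:153357604-153357903 on the plus strand, S100A14 chr1:153616276-153616575 on the minus strand and S100P chr4:6693628-6693927 on the plus strand.
S100A9: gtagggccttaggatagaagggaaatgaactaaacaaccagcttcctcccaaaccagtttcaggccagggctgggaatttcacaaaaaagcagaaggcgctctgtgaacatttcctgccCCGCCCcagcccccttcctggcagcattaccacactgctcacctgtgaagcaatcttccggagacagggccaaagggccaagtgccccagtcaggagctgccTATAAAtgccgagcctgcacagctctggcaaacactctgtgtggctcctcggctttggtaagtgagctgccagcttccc
S100A14: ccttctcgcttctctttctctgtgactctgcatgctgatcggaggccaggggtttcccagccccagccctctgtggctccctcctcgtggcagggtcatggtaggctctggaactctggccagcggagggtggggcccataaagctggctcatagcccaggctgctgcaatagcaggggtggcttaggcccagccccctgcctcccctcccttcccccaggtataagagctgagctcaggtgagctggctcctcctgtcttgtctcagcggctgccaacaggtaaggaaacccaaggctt
S100P: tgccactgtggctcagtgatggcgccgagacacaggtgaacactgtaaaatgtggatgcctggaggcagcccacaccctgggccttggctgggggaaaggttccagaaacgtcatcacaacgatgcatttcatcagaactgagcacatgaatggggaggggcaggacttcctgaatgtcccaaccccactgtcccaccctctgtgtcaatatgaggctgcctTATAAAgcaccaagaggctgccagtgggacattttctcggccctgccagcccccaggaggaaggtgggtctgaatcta

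The S100A9 promoter held TATAAA at -29 to -24 and a reverse-strand GC box at -131 to -126, the S100P promoter held TATAAA at -28 to -23, and the S100A14 window held none of the 3 motifs. Across the 35116 human promoters of the same length, 11.5% held TATAAA, 45.0% a GC box and 7.7% TGANTCA. A match is a run of letters and not a measured site. For S100A9 the RefSeq start was that of the deposited gene; for S100A14 and S100P it lay 661 and 809 bases away from it.

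S100A9 (ENSG00000163220, chromosome 1, 153357854 to 153361027, plus strand) had 1031 and 782 counts in the unprefixed and SP-prefixed controls and 367 and 326 in the unprefixed and SP-prefixed knockdown-labelled libraries. As levels these were 45.4 and 39.0 CPM against 21.2 and 17.2 CPM, with exact 95% counting intervals that did not touch between the groups (36.3 to 41.8 CPM in the lower control, 19.1 to 23.5 CPM in the higher knockdown-labelled library). Such intervals cover counting error only. Both controls were thus higher than both knockdown-labelled libraries. In bulk RNA, fewer cells expressing a gene and less RNA per cell cannot be told apart. Its log2 fold change was -1.14 ± 0.17 (SE), with an adjusted p of 0.175 without a term for the prefix and 0.0105 with one (edgeR, Benjamini-Hochberg). The unprefixed pair differed by -1.10 and the SP-prefixed pair by -1.18 on the log2 scale. In the fit without the prefix term, leaving out 1 library gave an adjusted p of 0.0101 without the unprefixed control, 0.0208 without the SP-prefixed control, 0.265 without the unprefixed and 0.999 without the SP-prefixed knockdown-labelled library. Here and for the genes below, such a fit leaves 1 library in a group, which is assumed to vary like the other group. DESeq2 with all libraries gave 9.25e-05 and limma-voom 0.209.

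S100A8, the other calprotectin subunit (chromosome 1, 153390032 to 153391188, minus strand), had 4 and 0 counts in the unprefixed and SP-prefixed controls and 0 and 1 in the unprefixed and SP-prefixed knockdown-labelled libraries. That is at most 0.176 CPM. A count of 0 allows up to 0.150 CPM in the SP-prefixed control and 0.174 CPM in the unprefixed knockdown-labelled library, taking 3 counts as the limit. S100A9 was therefore measured in libraries with almost no S100A8. Both are abundant in neutrophils and monocytes, and of the 8 leukocyte markers 7 were at or below 1 CPM in every library, with FCGR3B and MPO at 0 counts. Their summed level was 2.91 and 1.15 CPM in the unprefixed and SP-prefixed controls, and 1.45 and 0.316 CPM in the knockdown-labelled ones. LYZ, the remaining marker, had 1.94 and 0.249 CPM in the unprefixed and SP-prefixed controls and 0.521 and 0 CPM in the knockdown-labelled libraries. Which cells gave the S100A9 counts was not tested.

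S100A14 (ENSG00000189334, chromosome 1, 153614255 to 153616986, minus strand) had 143 and 172 CPM in the unprefixed and SP-prefixed controls and 98.1 and 83.0 CPM in the knockdown-labelled libraries. No control fell within the range of the knockdown-labelled libraries. Its log2 fold change was -0.80 ± 0.15 (SE, adjusted p of 0.189) without a prefix term and -0.80 ± 0.16 (adjusted p of 0.0364) with one. The difference was -0.54 on the log2 scale between the unprefixed libraries and -1.05 between the SP-prefixed ones, so the size differed by pair. In the fit without the prefix term, the adjusted p was 0.00639 without the unprefixed control, 0.0579 without the SP-prefixed control, 0.320 without the unprefixed and 0.999 without the SP-prefixed knockdown-labelled library, while DESeq2 with all libraries gave 0.00465 and limma-voom 0.209.

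S100P (ENSG00000163993, chromosome 4, 6693069 to 6697170, plus strand) had 121 CPM in the unprefixed control, 253 CPM in the SP-prefixed control, 89.4 CPM in the unprefixed and 87.8 CPM in the SP-prefixed knockdown-labelled library. The controls stood 2.1 times apart while the 2 knockdown-labelled libraries nearly coincided, and both controls were higher. For S100P the log2 fold change was -1.08 ± 0.31 (SE, adjusted p of 0.302) and with a prefix term -0.98 ± 0.22 (adjusted p of 0.0607). The SP-prefixed control set much of this value: without it the log2 fold change was -0.44 with an adjusted p of 0.134, and without the unprefixed control -1.50 with an adjusted p of 0.000458, where the spread came from the 2 knockdown-labelled libraries alone. Without either knockdown-labelled library the adjusted p was 0.571 and 0.999. DESeq2 gave an adjusted p of 0.0344 without the prefix term and 0.662 with it.

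S100A2 and S100A3 were the 2 members that lay higher in both knockdown-labelled libraries than in both controls. Of all genes tested, 22.1% lay higher in this way. S100A2 is an S100 protein found in the nucleus as well as the cytoplasm, and S100A3 is known from the hair cuticle. Their genes are neighbours, 11.7 kb apart on chromosome 1 and on the minus strand. Their promoters, drawn as above, are shown because these are the members that were higher together; S100A2 (the upstream one of its RefSeq promoters) is chr1:153565795-153566094 and S100A3 chr1:153549209-153549508.
S100A2: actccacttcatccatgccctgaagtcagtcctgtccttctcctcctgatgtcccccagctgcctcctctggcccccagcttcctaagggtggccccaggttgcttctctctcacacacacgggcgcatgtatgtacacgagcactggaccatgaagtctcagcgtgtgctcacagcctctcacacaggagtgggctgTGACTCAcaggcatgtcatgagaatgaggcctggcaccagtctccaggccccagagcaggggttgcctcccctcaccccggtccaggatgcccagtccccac
S100A3: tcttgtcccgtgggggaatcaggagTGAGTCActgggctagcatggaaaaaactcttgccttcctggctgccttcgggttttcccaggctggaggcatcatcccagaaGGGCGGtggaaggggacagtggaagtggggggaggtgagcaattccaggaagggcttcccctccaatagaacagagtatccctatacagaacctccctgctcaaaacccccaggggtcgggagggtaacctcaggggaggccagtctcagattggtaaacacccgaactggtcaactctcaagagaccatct

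Both promoters held the AP-1 motif, which 7.7% of all promoters held: TGACTCA at -52 to -46 in S100A2 and TGAGTCA at -225 to -219 in S100A3, the latter with a GC box at -142 to -137. The second RefSeq promoter of S100A2 and those of the other 8 members held no AP-1 motif. These genes were picked by their levels in the same libraries, and any link of the motif to those levels was not tested. S100A2's RefSeq start lay 2046 bases from the start of the deposited gene and that of S100A3 114 bases.

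S100A2 (ENSG00000196754, 153561108 to 153567890) had 236 and 139 CPM in the unprefixed and SP-prefixed controls and 320 and 279 CPM in the unprefixed and SP-prefixed knockdown-labelled libraries. Its lowest value was the SP-prefixed control, and both knockdown-labelled libraries were above both controls. Its log2 fold change was 0.68 ± 0.24 (SE, adjusted p of 0.384), and with the prefix term 0.72 ± 0.16 (adjusted p of 0.0515), which missed the threshold of 0.05. With the prefix term the adjusted p was 0.0446 under plain library size scaling and 0.0249 by DESeq2. Without the prefix term and without the unprefixed control the log2 fold change was 1.12 (adjusted p of 0.00356), and without the SP-prefixed control 0.35 (adjusted p of 0.303); without either knockdown-labelled library the adjusted p was 0.767 and 0.999.

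S100A3 (153547329 to 153549372) had 14.9 and 9.82 CPM in control libraries and 18.6 and 16.7 CPM in the knockdown-labelled libraries, in the same order of prefixes. The groups did not overlap, but the counting intervals of the unprefixed control (13.4 to 16.6 CPM) and the SP-prefixed knockdown-labelled library (14.9 to 18.7 CPM) did. For S100A3 the log2 fold change was 0.51 ± 0.23 (SE, adjusted p of 0.462), and 0.54 ± 0.19 (adjusted p of 0.201) with the prefix term. Without a prefix term it was 0.86 (adjusted p of 0.0315) when the unprefixed control was left out and 0.25 (adjusted p of 0.596) when the SP-prefixed control was. S100A3 lies within the span of S100A4 on the same strand and shares 0 exonic bases with it.

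The remaining members were the abundant S100A4, S100A6, S100A10 and S100A16, each with overlapping groups. S100A4 (153543613 to 153550136, minus strand) had 1224 and 764 CPM in the unprefixed and SP-prefixed controls and 918 and 899 CPM in the knockdown-labelled libraries. The knockdown-labelled libraries lay between the controls. The log2 fold change was -0.13 ± 0.22 (SE, adjusted p of 0.862), the unprefixed pair differing by -0.42 and the SP-prefixed pair by 0.24 on the log2 scale.

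S100A6 (153534599 to 153536244, minus strand) had 1882 and 1435 CPM in control libraries and 1501 and 1377 CPM in the knockdown-labelled libraries, the unprefixed library first. The unprefixed control stood above the other 3 libraries. Its log2 fold change was -0.21 ± 0.18 (SE) with an adjusted p of 0.692. It shares 23 exonic bases, 2.4% of its length, with an antisense gene, and no source used here gives the strand setting.

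S100A10 (151982915 to 151994390, minus strand) had 708 and 563 CPM in control libraries and 717 and 610 CPM in the knockdown-labelled libraries, and S100A16 (153606886 to 153613145, minus strand) had 574 and 500.3 against 521 and 511 CPM. In both genes the unprefixed libraries were the higher of their group. Their log2 fold changes were 0.06 ± 0.17 and -0.06 ± 0.13 (SE), with adjusted p of 0.918 and 0.901 by edgeR. Of the 9 tested members, S100A16 varied least, by 1.15 times between its highest and lowest library, and S100P most, by 2.88 times. Annexin A2, the partner of S100A10, measured 1628 and 1473 CPM in control libraries and 1549 and 1524 CPM in the knockdown-labelled libraries. In CPM, ANXA2 was thus higher than S100A10 in every library. Divided by the deposited lengths of 1543 bases for S100A10 and 8824 for ANXA2, S100A10 was 2.19 to 2.65 times ANXA2. The order thus depends on these lengths, and whether they match the transcripts present was not tested.

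**Figure D2:**
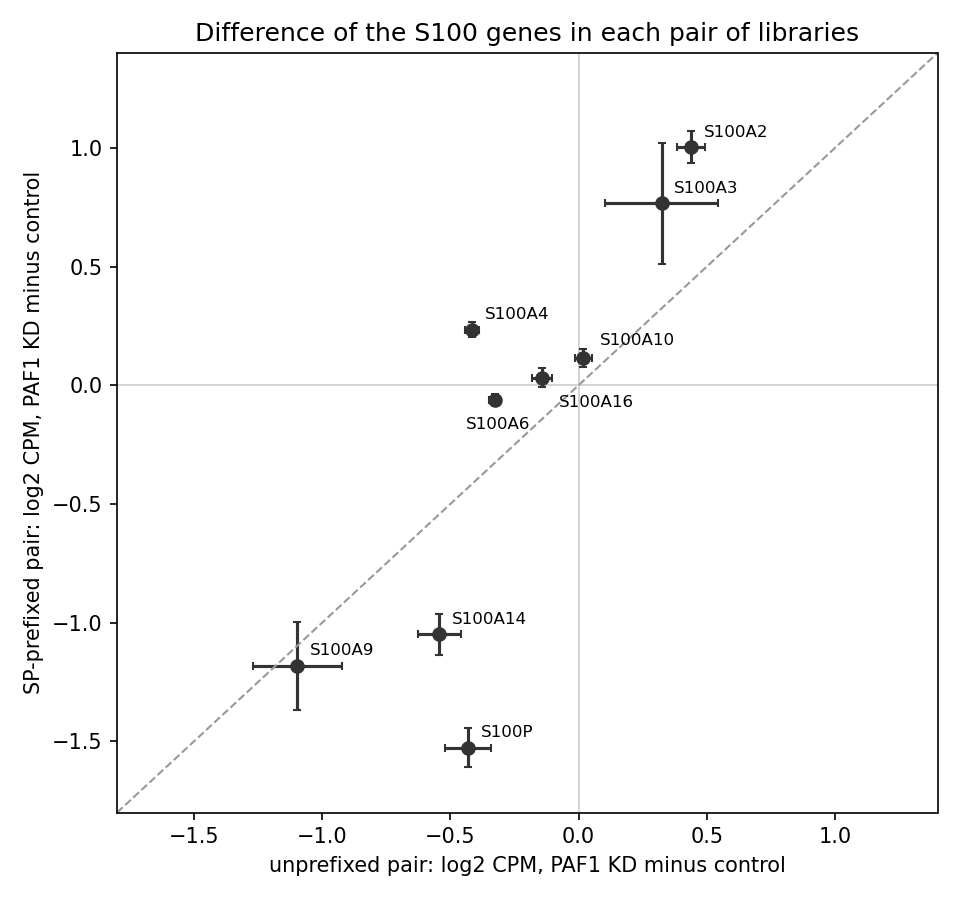
Log2 difference in CPM between the knockdown-labelled library and the control in the unprefixed pair (x axis) and in the SP-prefixed pair (y axis), 1 point per S100 gene that passed the filter, with bars for 95% counting limits and the line of equal differences. S100A9 lies near the line (-1.10 and -1.18), S100P far below it (-0.43 and -1.53), and S100A4 has opposite signs (-0.42 and 0.24).

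Without a prefix term, 0 of the 9 tested members passed at an adjusted p of 0.05, and the background was 0% of the 16417 genes; DESeq2 called 258 genes and limma-voom 0. At an unadjusted p of 0.05 there were 4 of 9 members and 1841 of all genes. With the prefix term, 0 members rose and 2 fell, S100A9 and S100A14, where 0.542% of all genes passed as higher and 1.41% as lower (1.95% in all). Both calls were lost when the filter on low counts was dropped, with adjusted p of 0.117 and 0.226, a setting in which no gene passed. The median log2 fold change was -0.09 over the 9 members and -0.01 over all genes tested.

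**Figure D3:**
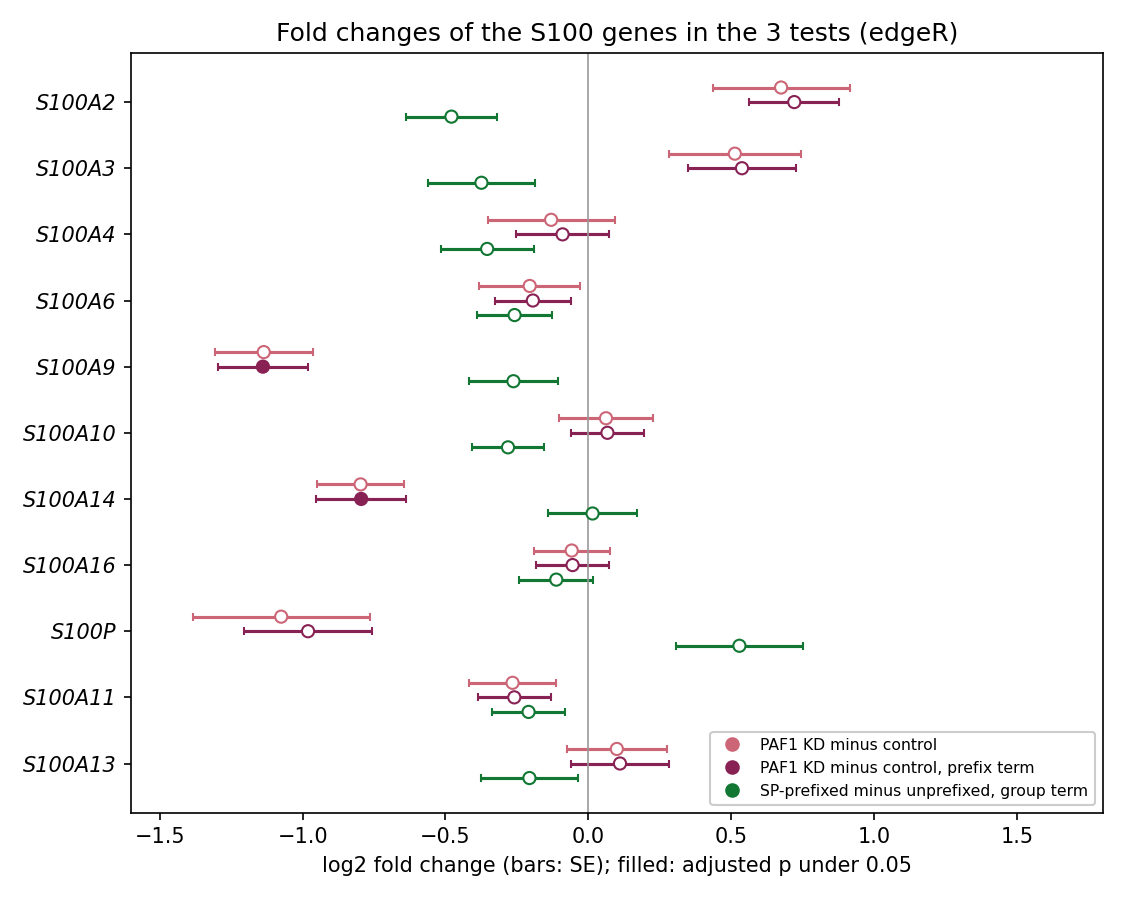
Log2 fold change with its SE for the 9 tested S100 genes, and for S100A11 and S100A13, by edgeR: PAF1 knockdown against control without and with a prefix term, and SP-prefixed against unprefixed libraries with a group term. Filled points have an adjusted p under 0.05: S100A9 and S100A14 with the prefix term.

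The comparison of SP-prefixed with unprefixed libraries, with the group as a term, called none of the 9 members, against a background of 0.250% of all genes. At an unadjusted p of 0.05 there were 2 members, S100A2 at a log2 fold change of -0.48 ± 0.16 (SE, adjusted p of 0.291) and S100P at 0.53 ± 0.22 (adjusted p of 0.431). Of the 16417 genes tested, 1761 had an unadjusted p under 0.05 by edgeR. DESeq2 called 69 genes in all. S100A4, S100A6, S100A10 and S100A16 lay lower in both SP-prefixed libraries than in both unprefixed ones, and no member lay higher, where 16.6% of all genes lay lower and 17.0% higher. Of the 9 members 7 had values below 0, as did 8403 of the 16417 genes tested. The median was -0.26 over the members, against -0.01 over all genes.

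The controls lay further apart than the knockdown-labelled libraries. The control names differ in the word CRISPR as well as in the prefix, and these cannot be told apart here. The controls stood further apart in 8 of the 9 members, all but S100A9, and in 61.8% of all genes that could be compared. The median gap between the controls was 0.39 on the log2 scale for the members and 0.25 for all genes, and between the knockdown-labelled libraries 0.16 and 0.17. S100P illustrates this: the SP-prefixed minus unprefixed difference was 1.07 in the controls and -0.03 in the knockdown-labelled libraries, and for S100A2 it was -0.76 and -0.20. These 2 differences of differences were not tested.

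Of 11 other S100 genes, S100A11, S100A13, S100A1 and S100A5 passed the filter and none passed any test. S100A11, a partner of annexin A1, was as abundant as the leading members at 846 and 691 CPM in control libraries and 668 and 612 CPM in the knockdown-labelled libraries, with a log2 fold change of -0.27 ± 0.15 (SE, adjusted p of 0.552). Both knockdown-labelled libraries were thus lower than both controls, as in 22.6% of all genes tested. The processed pseudogene S100A11P1 held 667 counts over all libraries, against 11530 to 19200 counts of S100A11 in each library. The S100A11 level is uncertain where reads were split between them. S100A13 ranged from 18.4 to 23.7 CPM, while S100A1 and S100A5 stayed below 1.4 CPM. S100A12, a neutrophil gene, had 2, 1, 1 and 0 counts, and S100A7, S100A7A, S100A7L2, S100B, S100G and S100Z had 0 counts in every library.

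Along chromosome 1, some neighbouring S100 genes differed in level. The abundant S100A6 and S100A4 flank the low S100A5, and S100A3 lies within the span of S100A4. S100A14 lies 1.1 kb from S100A16, whose groups overlapped, and S100A9 is 1309.9 kb from S100A11. The plot of genes by position shows both quantities.

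**Figure D4:**
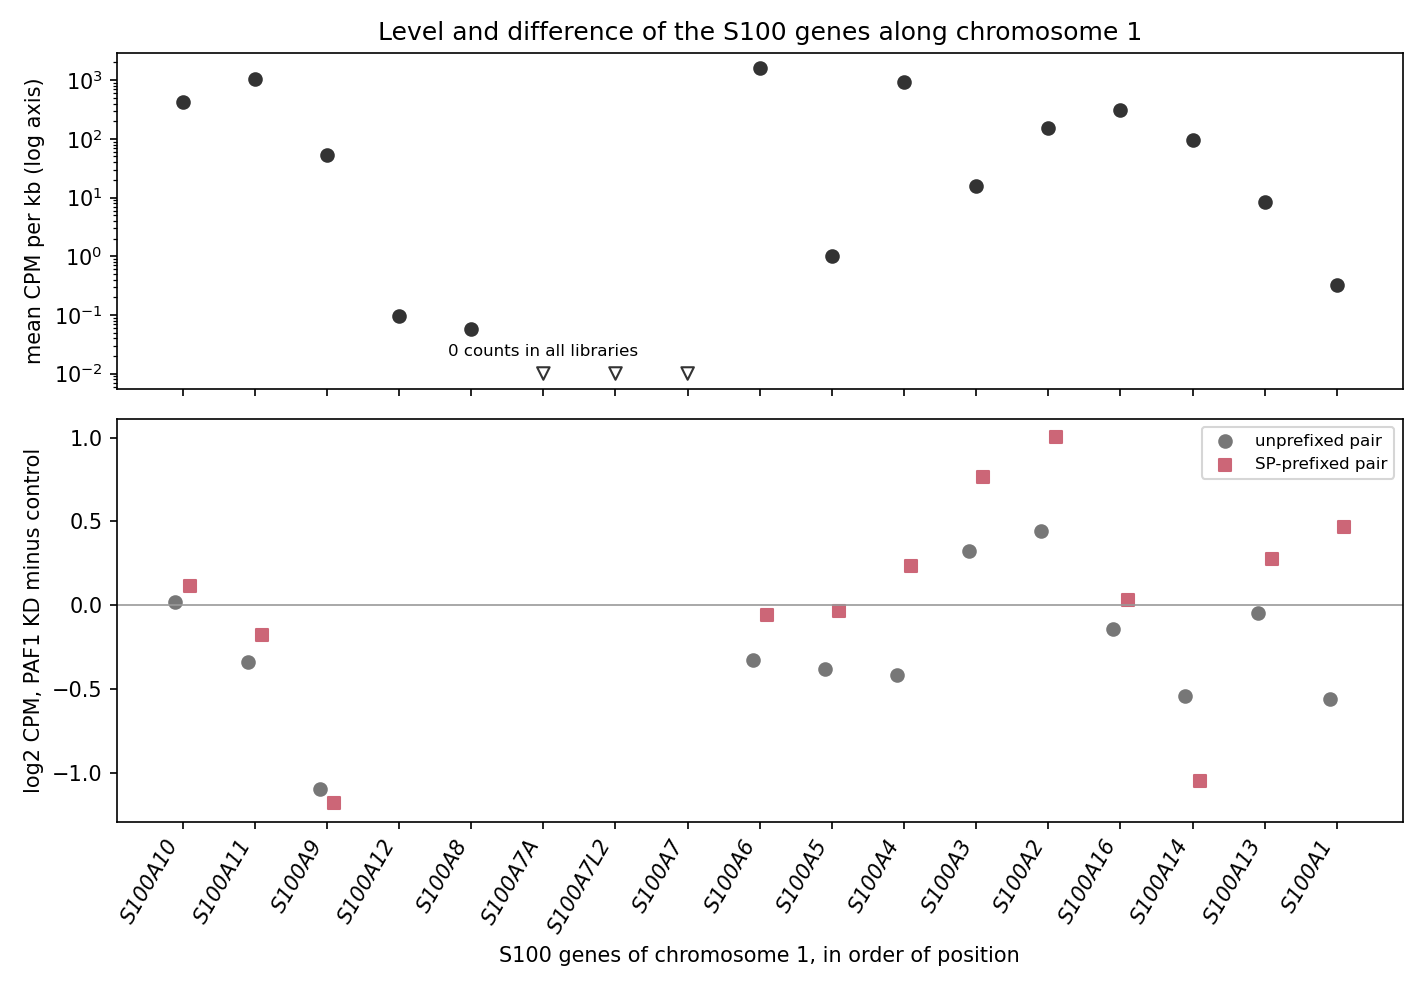
S100 genes of chromosome 1 in order of position: mean level in CPM per kb over the 4 libraries (top, log axis, triangles for genes with 0 counts) and the log2 difference of PAF1 knockdown minus control in the unprefixed (grey) and SP-prefixed (red) pair for genes that passed the filter (bottom). S100A2, S100A3 and S100A10 are above 0 in both pairs, and S100A5, S100A6, S100A9, S100A11 and S100A14 below 0 in both. No error bars are drawn. In the unprefixed pair S100A10 (0.018, counting SE 0.017) lies within 2 counting SEs of 0. So does S100A5 in the unprefixed and SP-prefixed pairs (-0.384 and -0.035, counting SEs 0.485 and 0.578).

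Of 13 binding partners of S100 proteins, all measured, ANXA6 was the 1 gene past the threshold between groups with the prefix term. Of all genes tested, 1.95% passed there. ANXA6 had 48.2 and 82.7 CPM in control libraries and 104 and 119 CPM in the knockdown-labelled libraries. Its log2 fold change was 0.82 ± 0.17 (SE, adjusted p of 0.0404), and the adjusted p without the prefix term was 0.334 by edgeR. AHNAK, a large scaffold bound by the S100A10 complex, was the 1 partner past the threshold between prefixes, where 0.250% of all genes passed. It had 981 and 1075 CPM in unprefixed libraries, against 1750 and 1778 CPM in SP-prefixed ones (0.78 ± 0.13, SE, adjusted p of 0.0475). Among 6 receptors and cofactors, of which 5 were tested, MCAM rose with the prefix term (1.87 ± 0.25, SE, adjusted p of 0.0105). It went from 1.28 and 3.49 CPM in the controls to 5.79 and 11.1 CPM, low levels throughout. Without the prefix term its adjusted p was 0.268 by edgeR. Between prefixes MCAM differed by 1.12 ± 0.24 (SE, adjusted p of 0.108), being higher in the SP-prefixed library of each group. AGER, the receptor of S100P, ranged from 9.91 to 12.8 CPM and TLR4 from 0.947 to 1.91 CPM, and neither passed a test. Of 7 genes whose proteins carry an S100 domain fused to repeats, 4 were tested and none passed. CRNN, at 2 to 19 counts per library, stood at 0.661 and 0.947 CPM in controls and 0.116 and 0.422 CPM in the knockdown-labelled libraries. Without a prefix term the log2 fold changes between groups were -1.515 for CRNN, -0.132 for FLG, -0.369 for HRNR and -0.212 for TCHH. Between prefixes HRNR differed most of the 4, at 1.361 ± 0.255 (SE, adjusted p of 0.071 by edgeR).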

How the data were processed

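The authors deposited raw, unnormalized counts for each gene in each lane, with the gene length. The submitters' processing notes name FastQC, HISAT2, featureCounts, hg19 and GRCh38, without versions or roles. No source used here gives the strand setting. Of 60483 gene identifiers, 56753 were in GENCODE release 29 on GRCh38 and 56729 of these overlapped the annotated span, so coordinates are given on GRCh38. Symbols were found for 56321. All 37 mitochondrial genes had 0 counts. Per the labels' protocols, RNA came from a mirVana kit with an integrity number of 10, and libraries from a TruSeq RNA kit.

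The 2 lanes of each library were summed, because the labels call them technical replicates and their counts differed little beyond sampling noise (chi-square per degree of freedom 1.01 to 1.03). Library totals were 17234973 to 22348416 counts. Column names gave the group and lane, not the library number. Counts were tested in R 4.3.3 with edgeR 4.0.16 (quasi-likelihood F test, TMM, default filter with a minimum count of 10, Benjamini-Hochberg threshold 0.05) over all 16417 genes that passed, without covariates, with the name prefix as a term, and for the prefix with the group as a term; 2, 1 and 1 residual degrees of freedom remained. CPM used TMM-scaled library sizes, and CPM per kb the deposited length. SEs came from the F statistic; intervals are exact Poisson at 95%, with 3 counts as the upper limit of a count of 0. The test code was run on simulated counts with the same dispersion for every gene and a difference in the tested term only. Such counts are simpler than these data, so that run says nothing on the calls made here. DESeq2 1.42.0, limma-voom 3.58.1, other scalings, no filter, each lane alone and omission of each library were alternatives. An older edgeR dispersion fit was an alternative chosen after seeing the data. Python 3.11.15 with scipy 1.17.1, numpy 2.4.6, pandas 2.3.3 and, for figures, matplotlib 3.10.9 was used. Promoters matched all 10 members.

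The members, gene lists and tests were chosen with earlier results of these data known. All members and other S100 genes are named; partners and receptors are named where they passed any test, and ANXA2, AGER and TLR4 as textbook partners outside that rule. The fused genes that were tested are named.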

Additional observations from a re-analysis of the deposited data

Results flagged for a closer look

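S100A4 differed in opposite directions in the pairs of libraries. The log2 difference between the knockdown-labelled library and the control was -0.415 for unprefixed and 0.235 for SP-prefixed libraries, each more than 2 counting SEs from 0. The difference between the pairs was not tested, and with 1 library per group and prefix no replicate error exists for it.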

How the results depend on the processing

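No paired analysis was possible because the column names carry no library number, so the replicate numbers of the titles could not serve as a block; the prefix term, a block by library name, is given in the report. Without the prefix term, the count of 0 genes became 258 by DESeq2 and ran from 0 to 1316 when single libraries were left out: 1316 without the unprefixed control, 208 without the SP-prefixed control and 0 without either knockdown-labelled library. With the prefix term, the 320 genes became 0 with no filter and 671 from lane 2 alone. Between prefixes, the 41 genes became 109 under library size scaling, 0 with no filter, 69 by DESeq2, 94 from lane 1 and 288 from lane 2. The cause was not tested. Single libraries could not be left out with a prefix term, since no residual degrees of freedom remain.

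Of the recomputed fold changes of S100 genes, 227 kept their direction and side of the threshold, 16 newly passed, 2 no longer passed and 7 changed sign. The fold changes that changed sign were small, on the log2 scale: when single libraries were left out, S100A4 ran from -0.429 to 0.263, S100A6 from -0.386 to 0.017, S100A16 from -0.153 to 0.058 and S100A10 from -0.092 to 0.250 (-0.053 without the unprefixed knockdown-labelled library). S100A14 between prefixes became -0.014 under library size scaling and -0.009 from lane 2. With the prefix term, S100P passed under library size scaling (adjusted p of 0.0389) and from lane 1 (0.0387) and lane 2 (0.00137), and S100A2 from lane 1 (0.0302) and lane 2 (0.00587), beside the settings given above. With 2 libraries per group the spread rests on few degrees of freedom, and S100A8 was too low to test.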
